A study of Homo sapiens with 8 samples.

Results

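The interleukin-1 family and the inflammasome were followed through 10 genes in microglia kept with other cells or alone: the cytokine genes IL1A, IL1B and IL18, the genes of their soluble antagonists and decoys IL1RN, IL1R2 and IL18BP, and the inflammasome genes NLRP3, PYCARD, CASP1 and GSDMD. Each gene was taken as the row of the count table whose Ensembl identifier maps to its symbol, and all 10 were found among 78899 genes, with 1 identifier each. Reads were counted for 9 of the 10 in at least 1 library, and the same 9 passed the filter on low counts that left 16249 genes for testing. PYCARD was listed at 0 throughout.

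Interleukin-1 beta and interleukin-18 are made as inactive precursors. A sensor such as NLRP3 assembles with the adaptor ASC, the product of PYCARD, into an inflammasome that activates caspase-1, which cleaves both precursors as well as gasdermin D, whose fragment forms pores in the plasma membrane. Interleukin-1 alpha is active without this cleavage, and the antagonist encoded by IL1RN, the decoy receptor encoded by IL1R2 and the binding protein encoded by IL18BP limit signalling outside the cell. Microglia are a main source of interleukin-1 beta in the brain, and in macrophages transcription of the cytokine and sensor genes is a step separate from activation of the complex, which transcript counts do not measure.

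Total RNA was sequenced in bulk from GFP-labelled microglia derived from H1, a human embryonic stem cell line, although the labels also call the cells iPSC-derived. Tri-culture microglia (4 libraries) shared their culture with cells that the labels do not name and received no added cytokine. Mono-culture microglia (4 libraries) were kept alone with IL-34 at 100 ng/mL and M-CSF at 10 ng/mL. Both groups carried the GFP label, were sorted by fluorescence 2 weeks after plating, and came from the same 4 batches, numbered 1 to 4. Partner cells and cytokine supplement changed together, so their effects cannot be told apart, and all cells come from 1 line.

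The tri-culture libraries held 17602010 to 24491765 counts, against 17037481 to 33363972 counts in mono-culture. All 14 microglial markers examined were tested, and their summed level was 6415 to 7627 CPM (counts per 1e+06 counts of the scaled library) in tri-culture and 4913 to 5939 CPM in mono-culture, with 4 markers higher, 2 lower and 8 not called. Among all tested genes 13.9% were called higher and 13.0% lower. Markers of other cells differed too. Astrocyte markers summed to 621 to 741 CPM in tri-culture and 222 to 296 CPM in mono-culture (10 of 13 tested higher, 1 lower). S100B (101 to 154 CPM) and SLC1A3 (90.3 to 147 CPM) made up most of the mono-culture sums. In tri-culture libraries 1 to 4, S100B had 506, 435, 252 and 241 CPM and GFAP 63.1, 150, 253 and 201 CPM. GFAP had 0.149 to 0.443 CPM in mono-culture. AQP4, ALDH1L1 and HEPACAM had no count in mono-culture, and NTSR2 had none in either group. Neutrophil and monocyte markers summed to 246 to 492 CPM in tri-culture and 192 to 219 CPM in mono-culture (7 of 8 tested higher, 1 lower), with MPO at 0 in all libraries. Dendritic cell markers summed to 363 to 505 CPM in tri-culture and 78.5 to 105 CPM in mono-culture (6 of 9 tested higher, 0 lower). Neuron markers summed to 32.7 to 58.5 CPM in tri-culture and 26.8 to 49.8 CPM in mono-culture (4 of 7 tested higher, 1 lower), and 6 of them (SNAP25, STMN2, DCX, GAP43, SLC17A6 and GAD1) had no count in mono-culture. Of these, GAP43 had 75 to 187 counts in each tri-culture library. T and NK cell markers summed to 9.49 to 21.4 CPM in tri-culture and 21.4 to 37.0 CPM in mono-culture, with 0 of 3 called. NCAM1 made up most of each sum, at 5.41 to 18.2 CPM in tri-culture and 18.2 to 33.1 CPM in mono-culture. The T cell markers CD3D, CD3E, CD3G and CD2 had 0 to 5 counts per library.

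Promoter sequences are shown for 3 members whose transcripts were higher in tri-culture and for NLRP3, which was not called. IL18 and CASP1, also higher, and GSDMD had no promoter in the reference used and could not be shown. RefSeq (GRCh38.p14) gave a promoter for 7 of the 10 members, and each sequence is the 250 bases before the transcript start, 5′ to 3′ on the gene's strand. IL1B has 1 start in the table, IL1RN 3, IL18BP 4 and NLRP3 1, and the third start is shown for IL1RN and IL18BP because it holds the most motif matches, a choice made after the matches were seen. Capitals mark matches on either strand to 7 motifs searched: AP-1 TGANTCA, the NF-kB consensus, a motif like the interferon-stimulated response element (ISRE-like), the STAT-type motif TTCNNNGAA, the PU.1-type motif GAGGAAG, the C/EBP-type motif TTGCNNAA and the TATA box TATAAA.
IL1B, chr2:112836780-112837029, minus strand: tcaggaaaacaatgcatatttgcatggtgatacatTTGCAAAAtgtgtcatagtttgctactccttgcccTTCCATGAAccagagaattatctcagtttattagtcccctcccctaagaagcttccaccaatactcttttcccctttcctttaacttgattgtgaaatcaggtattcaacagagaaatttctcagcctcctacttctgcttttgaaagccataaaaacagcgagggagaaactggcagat
IL1RN, start 3, chr2:113127348-113127597, plus strand: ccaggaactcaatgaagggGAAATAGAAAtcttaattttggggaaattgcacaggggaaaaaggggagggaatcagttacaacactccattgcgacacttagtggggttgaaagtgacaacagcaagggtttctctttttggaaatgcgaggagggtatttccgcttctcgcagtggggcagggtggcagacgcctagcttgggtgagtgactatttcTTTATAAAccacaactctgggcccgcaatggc
IL18BP, start 3, chr11:71999367-71999616, plus strand: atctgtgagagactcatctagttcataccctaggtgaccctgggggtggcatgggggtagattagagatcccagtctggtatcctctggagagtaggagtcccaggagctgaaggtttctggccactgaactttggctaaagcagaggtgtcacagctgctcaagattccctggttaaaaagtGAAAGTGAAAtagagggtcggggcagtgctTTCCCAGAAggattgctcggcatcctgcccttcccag
NLRP3, chr1:247415923-247416172, plus strand: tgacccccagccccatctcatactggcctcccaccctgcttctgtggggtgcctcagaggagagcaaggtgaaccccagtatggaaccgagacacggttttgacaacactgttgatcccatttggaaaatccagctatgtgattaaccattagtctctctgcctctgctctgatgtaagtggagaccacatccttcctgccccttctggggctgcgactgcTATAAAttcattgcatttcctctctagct
In the IL1B promoter the capitals are TTGCNNAA followed by TTCNNNGAA. In IL1RN they are the ISRE-like motif and, near the start, TATAAA on both strands, which overlap each other. The IL18BP window holds the ISRE-like motif followed by TTCNNNGAA, and the NLRP3 window holds TATAAA. Among 35116 RefSeq promoters of the same length, 3.02% held the ISRE-like motif, 6.57% TTCNNNGAA, 9.05% TTGCNNAA, 10.7% TATAAA, 6.57% TGANTCA, 9.96% the NF-kB consensus and 11.2% GAGGAAG. These shares are per single promoter, so they are no measure for the IL1RN and IL18BP windows, picked for the most matches. The ISRE-like motif was also in IL1RN start 2, but not in IL1RN start 1. It was absent from IL18BP starts 1, 2 and 4, and start 4 held no match to any motif. A match describes the letters of the window only.

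Of the 9 tested members, 5 were higher in tri-culture (IL18, IL18BP, IL1B, CASP1 and IL1RN), 0 were lower and 4 were not called at an adjusted p under 0.05 (edgeR quasi-likelihood test, Benjamini-Hochberg over 16249 genes). Among all tested genes 26.9% were called, 13.9% higher and 13.0% lower. The median log2 fold change, tri-culture minus mono-culture, was 0.69 over the 9 members and 0.02 over all tested genes. In 5 members every tri-culture library lay above every mono-culture library, which held for 15.3% of tested genes, and in 0 members did every tri-culture library lie below, against 14.2% of tested genes. In bulk RNA, fewer cells of a type and less RNA per cell cannot be told apart. The share that other cells' RNA has in any of these differences was not tested.

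**Figure D1:**
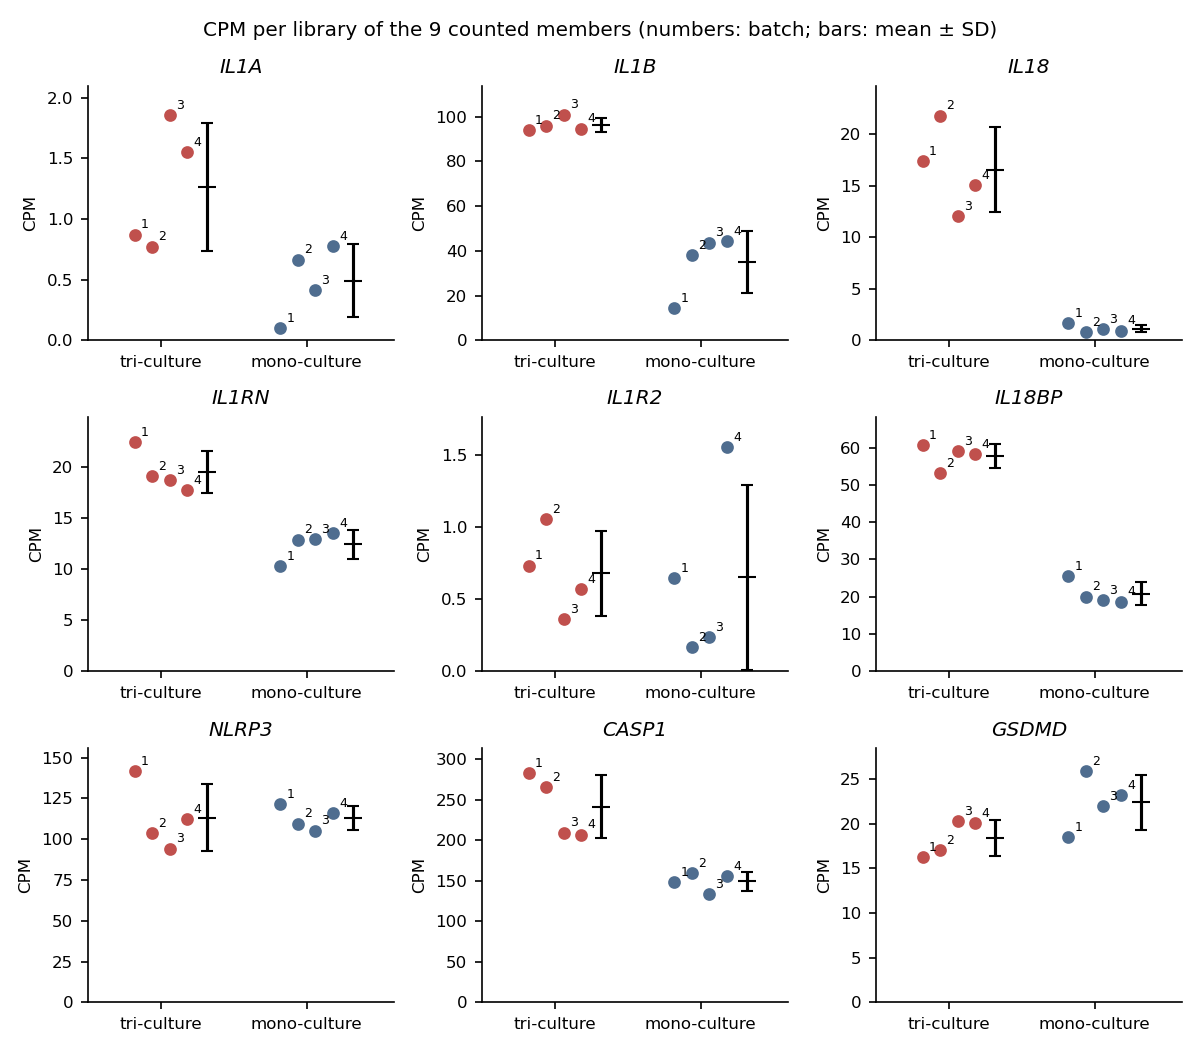
CPM of the 9 counted members in each library, tri-culture on the left and mono-culture on the right, with batch numbers beside the points and bars for mean ± SD (n = 4 each). The groups do not overlap for IL1B, IL18, IL1RN, IL18BP and CASP1, whereas they overlap for IL1A, IL1R2, NLRP3 and GSDMD.

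Among the ligands, IL18 differed most. It encodes interleukin-18, which drives interferon-gamma production by T and NK cells (ENSG00000150782, GRCh38 chromosome 11, 112143251 to 112164117, minus strand). IL18 had 17.4, 21.8, 12.03 and 15.1 CPM in tri-culture libraries 1 to 4, against 1.67, 0.831, 1.10 and 0.959 CPM in mono-culture libraries 1 to 4. The lowest tri-culture library was far above the highest mono-culture library, and the mono-culture values rest on 15 to 49 counts. IL18 averaged 16.6 ± 4.11 CPM in tri-culture and 1.14 ± 0.372 CPM in mono-culture (mean ± SD of 4 libraries in each group), and the fitted difference was 14.1-fold (edgeR, log2 fold change 3.82 ± 0.26 SE, adjusted p = 4.65e-07). Within the batches the log2 difference was 3.34, 4.63, 3.39 and 3.91.

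IL1B encodes interleukin-1 beta, a fever-inducing cytokine of activated macrophages (ENSG00000125538, chromosome 2, 112829751 to 112836903, minus strand). It had 93.9, 95.9, 101 and 94.7 CPM in tri-culture, against 14.6, 38.0, 43.7 and 44.3 CPM in mono-culture. The tri-culture libraries lay close together, with a highest-to-lowest ratio of 1.07, whereas in mono-culture that ratio was 3.03 and library 1 was low. The means were 96.4 ± 3.16 CPM in tri-culture and 35.1 ± 13.98 CPM in mono-culture, a 2.75-fold difference (log2 fold change 1.46 ± 0.26 SE, edgeR, adjusted p = 0.000897). Within batches 1 to 4 the log2 difference was 2.68, 1.34, 1.21 and 1.10, so batch 1 had the widest gap. Between 427 and 2357 counts stand behind each value.

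IL1A, the gene of interleukin-1 alpha, an alarmin released by damaged cells, lies 45.2 kb from IL1B on chromosome 2 (ENSG00000115008, 112773915 to 112784590, minus strand). It was near the lower end of detection, with 0.871, 0.773, 1.85 and 1.55 CPM (19 to 41 counts) in tri-culture and 0.103, 0.665, 0.417 and 0.779 CPM (3 to 14 counts) in mono-culture. Tri-culture was above mono-culture in 4 of 4 batches, but the groups overlapped by a small margin and the test did not pass (log2 fold change 1.42 ± 0.54 SE, edgeR, adjusted p = 0.0701). A fit that took batch as a block called it higher (log2 fold change 1.50, edgeR, adjusted p = 0.0364).

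Among the antagonists and decoys, IL18BP and IL1RN were called higher, and IL1R2, with few counts, was not called. IL18BP encodes the protein that captures interleukin-18 and is known as an interferon-gamma target (ENSG00000137496, chromosome 11, 71998541 to 72005715, plus strand). It had 60.6, 53.2, 59.1 and 58.1 CPM in tri-culture, against 25.6, 20.1, 19.2 and 18.7 CPM in mono-culture. All tri-culture libraries were more than 2-fold above the highest mono-culture library. The means were 57.8 ± 3.20 CPM in tri-culture and 20.9 ± 3.18 CPM in mono-culture, 2.77-fold apart (log2 fold change 1.47 ± 0.13 SE, edgeR, adjusted p = 2.85e-06). Exons of NUMA1 on the opposite strand overlap 15.6% of its exon bases, and whether counting used strand is not given in the sources used here.

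IL1RN encodes the interleukin-1 receptor antagonist, which occupies the receptor without signalling (ENSG00000136689, chromosome 2, 113107214 to 113134016, plus strand), and it lies 270 kb from IL1B. Its level was 22.5, 19.1, 18.8 and 17.8 CPM in tri-culture, against 10.3, 12.9, 12.9 and 13.5 CPM in mono-culture. The groups did not overlap, and in batch 1 the tri-culture library was the highest and the mono-culture library the lowest of its group. The means were 19.5 ± 2.04 CPM in tri-culture and 12.4 ± 1.44 CPM in mono-culture, a 1.57-fold difference (log2 fold change 0.66 ± 0.14 SE, edgeR, adjusted p = 0.00347).

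IL1R2 encodes a receptor that binds interleukin-1 but has no signalling domain (ENSG00000115590, chromosome 2, 101991844 to 102028544, plus strand). Tri-culture libraries had 0.733, 1.06, 0.362 and 0.570 CPM (8 to 26 counts), and mono-culture libraries 0.649, 0.166, 0.238 and 1.56 CPM (3 to 26 counts). The groups overlapped fully, and no difference was detectable at this depth (log2 fold change 0.12 ± 0.62 SE, edgeR, adjusted p = 0.918).

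In the inflammasome core, CASP1 was higher while NLRP3 was not called. CASP1 encodes caspase-1 (ENSG00000137752, chromosome 11, 105025443 to 105035250, minus strand). It had 283, 266, 209 and 207 CPM in tri-culture, against 149, 160, 133 and 156 CPM in mono-culture. Every tri-culture library was above every mono-culture library, and tri-culture libraries 1 and 2 were above 3 and 4, an order found in 31.2% of all tested genes. The means were 241 ± 38.9 CPM in tri-culture and 149 ± 11.6 CPM in mono-culture, a 1.62-fold difference (log2 fold change 0.69 ± 0.13 SE, edgeR, adjusted p = 0.00118). Summed neutrophil and monocyte markers stood at 492, 429, 289 and 246 CPM in the same tri-culture libraries. LYZ and CD14 made up most of that sum, and CD14 was called lower in tri-culture. CSF3R, of the same list, ran the other way at 11.9, 11.8, 15.9 and 21.7 CPM. The microglial marker TYROBP was also higher in libraries 1 and 2, at 782, 691, 489 and 440 CPM, and P2RY12 had the opposite order. The part of these markers in the result was not tested.

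CARD16, a caspase-1 inhibitor gene whose sequence is near-identical to the start of CASP1, lies 6.08 kb from it, so reads could be split between them and both values are uncertain. CARD16 had 25.4, 25.4, 18.4 and 16.5 CPM in tri-culture, against 17.8, 20.5, 18.5 and 17.0 CPM in mono-culture, and was not called (edgeR, adjusted p = 0.356).

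NLRP3, the sensor that responds to potassium efflux and membrane damage (ENSG00000162711, chromosome 1, 247416156 to 247449108, plus strand), had 142, 104, 94.2 and 112 CPM in tri-culture. In mono-culture it had 121, 110, 105 and 116 CPM. The mono-culture range lay within the tri-culture range, and tri-culture was higher in 1 of 4 batches. Both means were 113 CPM, with an SD of 20.6 in tri-culture and 7.17 in mono-culture (log2 fold change 0.00097 ± 0.13 SE, edgeR, adjusted p = 0.996).

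PYCARD (ENSG00000103490, chromosome 16, 31201485 to 31203450, minus strand) was listed at 0 in all 8 libraries, under a floor of 3 counts over a group, which is 0.0352 CPM in tri-culture and 0.0298 CPM in mono-culture. These zeros can be a failure of counting and were not read as absence of the transcript. Exons of PYCARD-AS1 on the opposite strand cover 59.7% of the exon bases of PYCARD, and PYCARD-AS1 itself had 22 counts over all libraries. The widely used genes MRPL53, GPATCH4, PIGY and PYURF, chosen after their values were seen, were also at 0 in every library. Genes on the same strand overlap 45.2% of the exon bases of MRPL53, 100% of PIGY and 15.9% of PYURF. For GPATCH4 and PYCARD this overlap is 0%. Of 19850 protein-coding genes of GENCODE 29 in the table, 3038 (15.3%) had no count in any library.

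GSDMD encodes gasdermin D, the pore protein of pyroptosis (ENSG00000104518, chromosome 8, 143553207 to 143563062, plus strand). Tri-culture libraries had 16.3, 17.1, 20.3 and 20.1 CPM, and mono-culture libraries 18.5, 25.9, 22.0 and 23.2 CPM. Tri-culture was lower in 4 of 4 batches, yet the groups overlapped and the test did not pass (18.4 ± 2.05 CPM in tri-culture and 22.4 ± 3.05 CPM in mono-culture, log2 fold change -0.28 ± 0.14 SE, edgeR, adjusted p = 0.172).

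Levels of different genes were compared on the authors' second table, a signal normalized for transcript length. In tri-culture the order by median signal was CASP1 (150), IL1B (115), NLRP3 (69.0), IL18BP (36.2), IL18 (19.8), IL1RN (18.5), GSDMD (10.8), IL1A (1.63) and IL1R2 (0.569). The ranges of neighbours in this order did not overlap, except those of IL18 (14.9 to 27.0) and IL1RN (17.0 to 21.7). In mono-culture the order was CASP1 (95.3), NLRP3 (71.2), IL1B (48.3), GSDMD (13.1), IL1RN (12.3), IL18BP (11.9), IL18 (1.26), IL1A (0.719) and IL1R2 (0.392). There GSDMD, IL1RN and IL18BP overlapped with each other, as did IL18, IL1A and IL1R2. IL1B had the higher signal than NLRP3 in all tri-culture libraries (112 to 123 for IL1B and 60.8 to 90.3 for NLRP3), and the lower one in all mono-culture libraries (17.7 to 53.1 for IL1B and 66.9 to 78.3 for NLRP3).

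**Figure D2:**
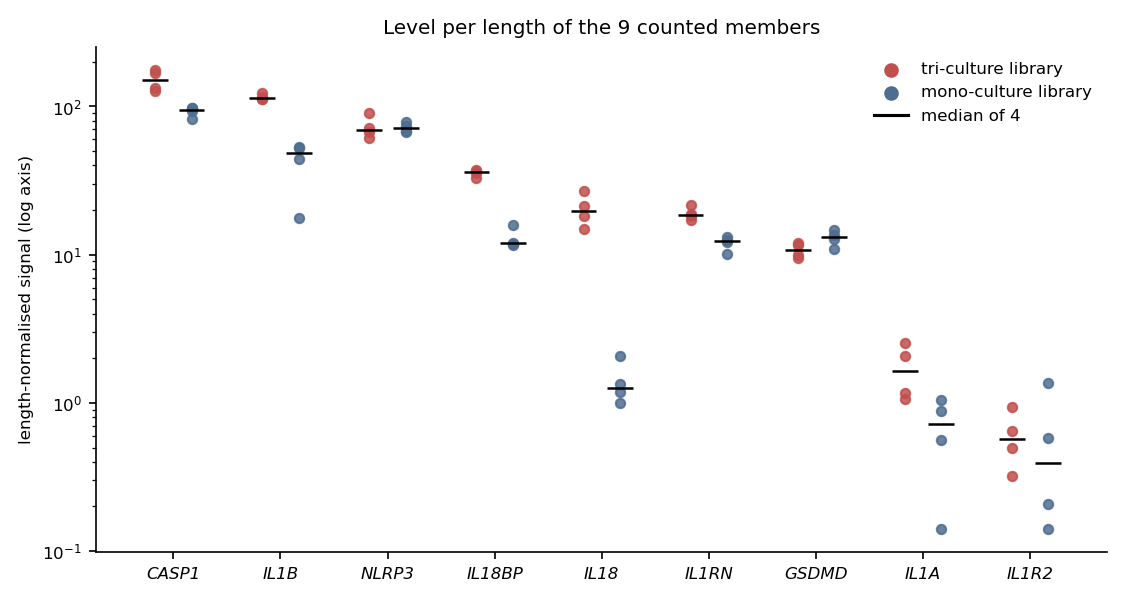
Length-normalised signal of the 9 counted members on a log axis, one point per library, tri-culture left of mono-culture, with a line at the median of 4 libraries. IL18 differed most, with medians of 19.8 in tri-culture and 1.26 in mono-culture, and CASP1 was first in both groups.

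Ratios within a library set each antagonist against its ligand on the same signal scale, as a description without a test. IL1RN to IL1B was 0.193, 0.161, 0.150 and 0.151 in tri-culture, against 0.570, 0.274, 0.239 and 0.246 in mono-culture. Antagonist transcripts were thus fewer per ligand transcript in every tri-culture library, although both genes were higher there. The ratio of IL18BP to IL18 was 1.75, 1.23, 2.47 and 1.94 in tri-culture, against 7.67, 12.1, 8.75 and 9.80 in mono-culture. The IL18BP signal was above the IL18 signal in all 8 libraries, by less in tri-culture. Its level is uncertain, because NUMA1 exons overlap 15.6% of the IL18BP exon bases and strand use in counting is not given. The mono-culture IL18 values rest on 15 to 49 counts. IL1R2 to IL1B ran from 0.0026 to 0.0081 in tri-culture and from 0.0032 to 0.033 in mono-culture, and IL1A to IL1B from 0.0091 to 0.021 in tri-culture and from 0.0079 to 0.020 in mono-culture. Both of these ratios overlapped between the groups.

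**Figure D3:**
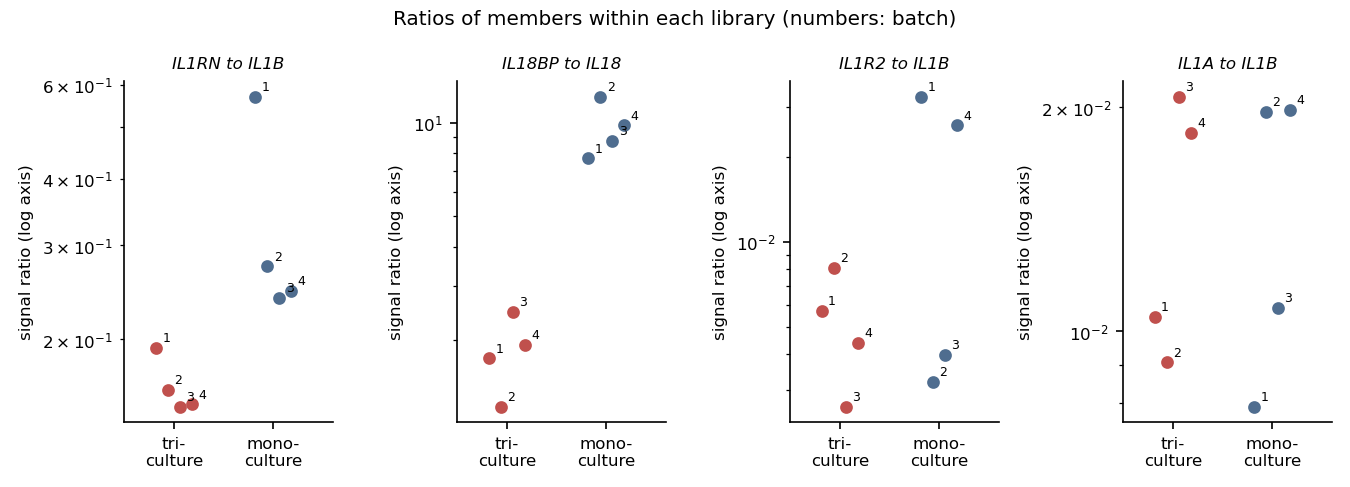
Ratios of length-normalised signal within each library on log axes, tri-culture left of mono-culture, with batch numbers beside the points. IL1RN to IL1B and IL18BP to IL18 lie lower in every tri-culture library than in any mono-culture library, whereas the other ratios overlap.

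The remaining ligands of the family were scarcely seen. IL33, IL36A, IL36B, IL36G, IL36RN and IL1F10 were at 0 in all 8 libraries, and IL37 had at most 4 counts in a library, so 0 of these 7 genes were tested. Of 9 receptor genes, 4 were tested, 2 were higher and 0 lower, with a median log2 fold change of 0.93, against 0.02 over all tested genes. Over all tested genes 13.9% were higher and 13.0% lower, and 4 genes are too few to read anything from the count. IL1RAP, the co-receptor shared by the interleukin-1, interleukin-33 and interleukin-36 receptors, had 73.1, 63.8, 63.4 and 57.3 CPM in tri-culture, against 18.9, 21.6, 19.1 and 23.0 CPM in mono-culture (log2 fold change 1.65 ± 0.12 SE, edgeR, adjusted p = 7.50e-07). IL1R1, the signalling receptor for both forms of interleukin-1, had 17.6, 16.9, 8.09 and 7.82 CPM in tri-culture, against 2.29, 1.77, 3.13 and 1.68 CPM in mono-culture (log2 fold change 2.48 ± 0.32 SE, edgeR, adjusted p = 7.56e-05). Both receptor genes were separated between the groups, and IL1R1 was higher in tri-culture libraries 1 and 2 than in 3 and 4. Astrocytes can also express IL1R1, and 10 of 13 tested astrocyte markers were higher in tri-culture; their part in the result was not tested.

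Of 11 genes of the signalling arm below the receptors, 1 was higher and 2 were lower, with a median log2 fold change of -0.08. A share of this size is near the 26.9% called among all tested genes, so nothing is read from the count. IRAK2, a kinase that sustains signalling from the receptor complex, had 11.1, 13.2, 13.4 and 12.8 CPM in tri-culture, against 19.0, 27.7, 26.4 and 29.4 CPM in mono-culture (log2 fold change -1.01 ± 0.15 SE, edgeR, adjusted p = 0.000274). IRAK1, the kinase recruited early to the complex, was lower at 137 ± 11.8 CPM in tri-culture and 183 ± 7.14 CPM in mono-culture (log2 fold change -0.42 ± 0.10 SE, edgeR, adjusted p = 0.00731). IRAK3, which restrains the pathway in macrophages, was higher at 41.7 ± 5.76 CPM in tri-culture and 32.1 ± 3.09 CPM in mono-culture (log2 fold change 0.38 ± 0.13 SE, edgeR, adjusted p = 0.0420), but lost its call in 12 of 20 alternatives. The adaptor MYD88 had 77.2 ± 8.92 CPM in tri-culture and 81.8 ± 3.26 CPM in mono-culture and was not called (edgeR, adjusted p = 0.631).

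Of 11 inflammasome sensors other than NLRP3, 6 were tested, 3 were higher and 0 lower, with a median log2 fold change of 0.20. The shares over all tested genes were 13.9% higher and 13.0% lower, and with so few sensors nothing is read from the count. NLRP1, a sensor of viral proteases and of double-stranded RNA, had 40.1, 33.4, 51.1 and 68.2 CPM in tri-culture, against 11.2, 10.3, 8.30 and 15.6 CPM in mono-culture (log2 fold change 2.10 ± 0.24 SE, edgeR, adjusted p = 2.57e-05). MEFV, the gene of pyrin, which senses inactivation of RhoA, had 9.13 ± 2.25 CPM in tri-culture and 4.04 ± 1.15 CPM in mono-culture (log2 fold change 1.17 ± 0.25 SE, edgeR, adjusted p = 0.00310). NAIP, the receptor that passes bacterial flagellin to NLRC4, had 266 ± 25.7 CPM in tri-culture and 187 ± 20.7 CPM in mono-culture (log2 fold change 0.51 ± 0.12 SE, edgeR, adjusted p = 0.00579); near-identical copies of the gene make this value uncertain. NLRC4 itself was not called, at 17.4 ± 3.30 CPM in tri-culture and 23.7 ± 2.99 CPM in mono-culture (edgeR, adjusted p = 0.0523). It was called lower in 6 of 20 alternatives: with DESeq2 (adjusted p = 0.0321), with DESeq2 size factors in edgeR (0.0491), and in edgeR without tri-culture library 1 (0.0455) or 2 (0.0248) or without batch 1 (0.0460) or 2 (0.0371). The DNA sensor AIM2 had 0 to 3 counts in tri-culture libraries and 3 to 5 in mono-culture libraries and was not tested.

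Of 15 regulators of the complex, 14 were found among the counted genes and 10 were tested. Of these 10, 2 were higher and 2 lower, with a median log2 fold change of -0.04. The shares over all tested genes were 13.9% higher and 13.0% lower, and with so few regulators nothing is read from the count. TXNIP, a thioredoxin-binding protein reported to bind NLRP3, had 3274, 1785, 1563 and 1648 CPM in tri-culture, against 730, 384, 303 and 326 CPM in mono-culture (log2 fold change 2.25 ± 0.31 SE, edgeR, adjusted p = 0.000132). In both groups library 1 was the highest, and the log2 difference within batches lay between 2.17 and 2.36. SERPINB9, an inhibitor of granzyme B, was higher at 36.9 ± 5.39 CPM in tri-culture and 20.5 ± 3.76 CPM in mono-culture (log2 fold change 0.85 ± 0.16 SE, edgeR, adjusted p = 0.00122). PANX1, a channel that releases ATP, was lower at 34.1 ± 5.53 CPM in tri-culture and 62.8 ± 8.36 CPM in mono-culture (log2 fold change -0.88 ± 0.14 SE, edgeR, adjusted p = 0.000449). BRCC3, a deubiquitinase that acts on NLRP3, was lower at 39.0 ± 2.39 CPM in tri-culture and 48.8 ± 4.20 CPM in mono-culture (edgeR, adjusted p = 0.0409), a call lost in 13 of 20 alternatives, among them the fit with batch as a block (adjusted p = 0.0587). NEK7, the kinase that bridges NLRP3 subunits, had 137 ± 33.8 CPM in tri-culture and 137 ± 11.5 CPM in mono-culture, and the ATP-gated channel gene P2RX7 had 56.4 ± 9.43 CPM in tri-culture and 56.8 ± 15.8 CPM in mono-culture; neither was called.

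Among 13 other caspases and pyroptosis effectors, 9 were tested, 0 were higher and 2 lower, with a median log2 fold change of -0.18. Among all tested genes 13.9% were higher and 13.0% lower, and with so few genes nothing is read from the count. GSDME, a gasdermin cleaved by caspase-3, had 17.6, 27.5, 24.0 and 15.8 CPM in tri-culture, against 61.0, 54.8, 53.5 and 41.4 CPM in mono-culture (log2 fold change -1.31 ± 0.18 SE, edgeR, adjusted p = 0.000131). CASP5, one of the caspases that bind bacterial lipopolysaccharide directly, had 14.9, 13.3, 6.65 and 7.97 CPM in tri-culture, against 21.2, 24.1, 18.7 and 25.2 CPM in mono-culture (log2 fold change -1.05 ± 0.23 SE, edgeR, adjusted p = 0.00412). CASP5 lies 2.27 kb from CASP1, so neighbouring caspase genes were called in opposite directions. CASP4, the other lipopolysaccharide-binding caspase, 24.8 kb beyond CASP5, had 47.6 ± 10.2 CPM in tri-culture and 55.3 ± 4.05 CPM in mono-culture and was not called (edgeR, adjusted p = 0.316). NINJ1, which ruptures the membrane after pore formation, had 154 ± 21.2 CPM in tri-culture and 175 ± 21.2 CPM in mono-culture and was not called (edgeR, adjusted p = 0.349).

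**Figure D4:**
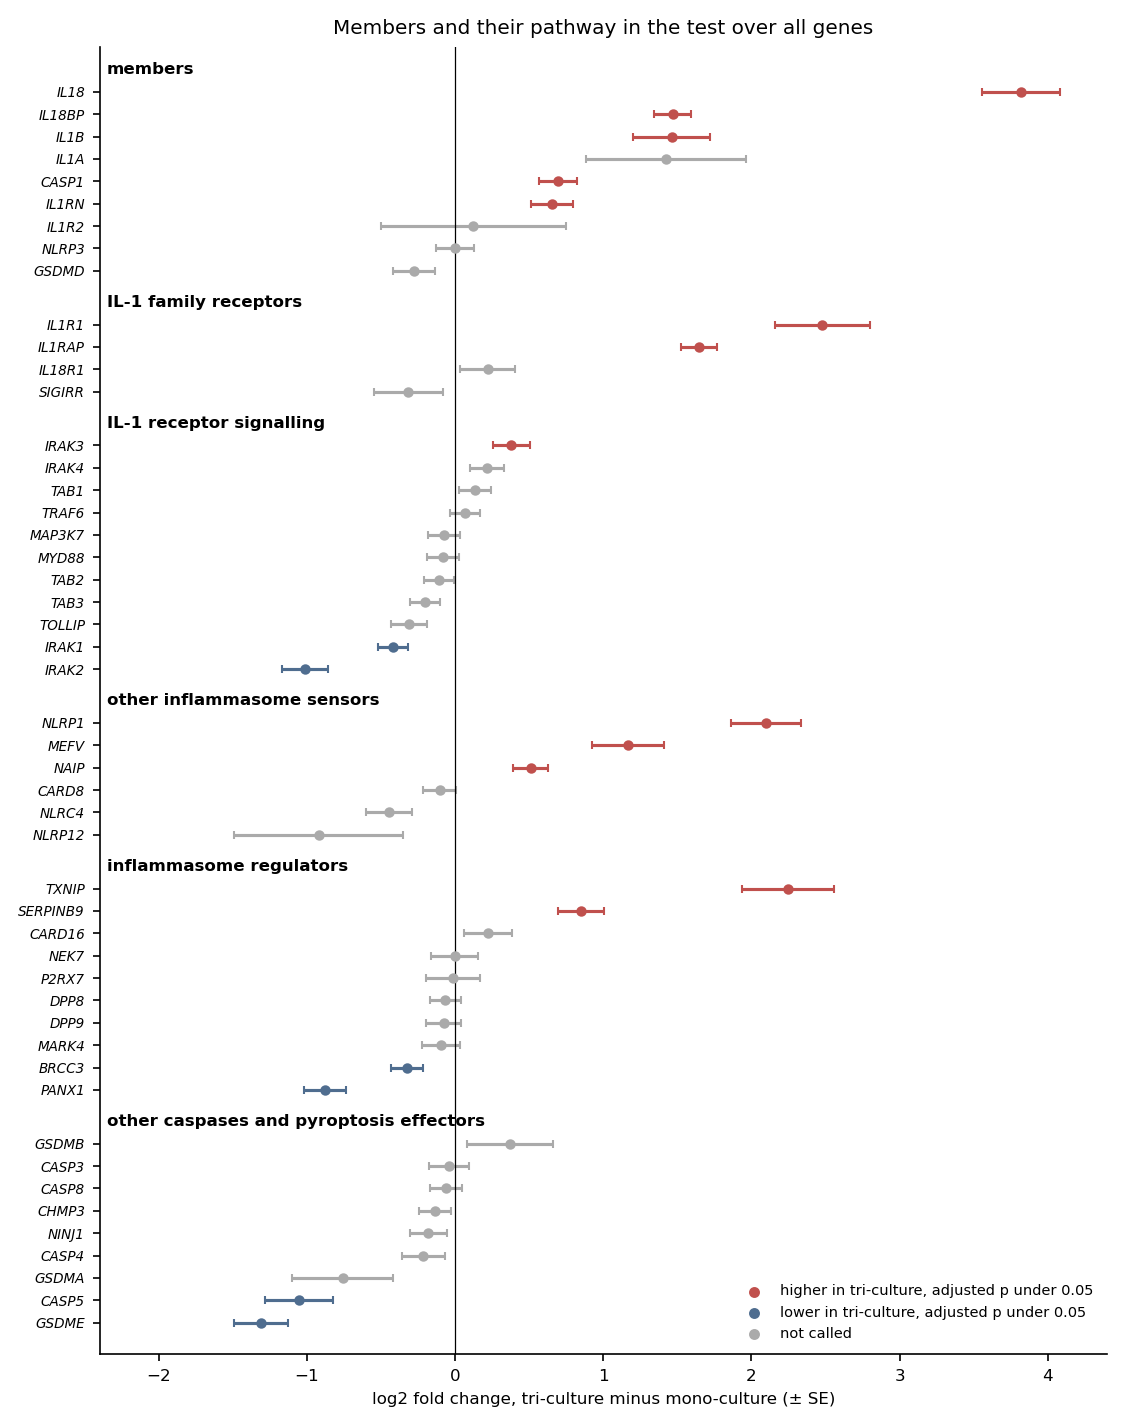
Log2 fold change, tri-culture minus mono-culture, of the tested members and of the tested genes of the surrounding lists, with bars for ± SE and colours for the edgeR call. IL18 stands farthest to the right at 3.82 and GSDME farthest to the left at -1.31, while NLRP3 sits at 0.00097.

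The genes whose log2 CPM, centred on its mean over the 8 libraries, was most like that of a member were sought among 10589 candidates for IL1B and IL18. For IL1B they were PCNX2, BICD1, a dynein adaptor, and CLDN1, a tight junction claudin, with root mean square differences of 0.27, 0.30 and 0.30. For IL18 they were MMRN1, a multimerin, TJP1, a tight junction scaffold, and ADGRE1, an adhesion G protein-coupled receptor, with root mean square differences of 0.27, 0.28 and 0.33. ADGRE1 averaged 44.4 CPM in tri-culture and 4.20 CPM in mono-culture, and TJP1 averaged 22.0 CPM in tri-culture and 1.31 CPM in mono-culture. The 8 points share libraries and scaling with the member, and the likeness is a description.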

How the data were processed

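The deposited counts are whole reads per gene. Per the submitters' processing notes the authors used GRCh38, HISAT2 2.1.0 and featureCounts 2.12.3. For annotation release, strand setting and overlapping genes, the method is not given in the sources used here. The second deposited table holds a length-normalized signal; its totals differ between libraries (0.866 to 1.14 in units of 1e+06), so it is not plain TPM, and it was used only for levels, ratios and 1 alternative test.

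Counts were filtered with filterByExpr (minimum count 10, minimum total 15), scaled by TMM and compared in edgeR 4.0.16 (robust quasi-likelihood, group only, R 4.3.3) over 16249 genes, at a Benjamini-Hochberg adjusted p under 0.05. A positive log2 fold change means higher in tri-culture, and its standard error is approximated as its size over the square root of F. Fold differences are the fitted ones and need not equal the ratio of the means. CPM values use TMM-scaled library sizes; batch differences are log2 ratios of CPM plus 0.05. Floors of 3 counts cover counting error only. Gene positions and overlaps are from GENCODE 29, which need not be the annotation used for counting.

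The labels give both groups the batch numbers 1 to 4, which pair the libraries; libraries of 1 batch deviated from their group means with correlations of 0.185, 0.126, 0.264 and 0.0796. With 1 library per group in a batch, batches were not tested singly. No replicates agreed within sampling noise, and the p-values reflect spread between the batches.

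The members and gene lists were chosen with earlier results of these data known. All 10 members are named. From each list, every called gene is named if 5 or fewer, and genes with a mean of at least 20 CPM. AIM2, IL37, the ligands and markers at 0 and some other cell type markers were named besides, after their values were seen. The 3 genes most like IL1B and IL18 were sought among genes with a mean of at least 5 CPM. Alternatives were DESeq2 1.42.0 and its size factors, library size only, upper quartile factors, other filters, limma 3.58.1 on the log2 signal plus 0.5, the batch as a block, and each library or batch left out.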

Additional observations from a re-analysis of the deposited data

Results flagged for a closer look

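In 54 groups of 4 libraries, 2 held a library whose gap to its nearest neighbour exceeded the 95% critical value of Dixon's gap-to-range ratio, and chance gives about 1 in 20. TXNIP stood at 3274 CPM in tri-culture library 1, apart from the other tri-culture libraries. The signal ratio of IL1RN to IL1B stood at 0.570 in mono-culture library 1, where IL1B was lowest at 14.6 CPM and IL1RN lowest at 10.3 CPM.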

How the results depend on the processing

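The calls of IL18, IL18BP, IL1B, CASP1 and IL1RN held under all 20 alternatives, with 0 members lower throughout. When batch entered as a block, IL1A was called higher (log2 fold change 1.50, edgeR, adjusted p = 0.0364), NLRP3 stood at -0.013 and 1 inflammasome regulator was lower instead of 2; no other call of a member changed in the block fit. IL1A was also called without a filter on low counts (1.39), with DESeq2 (1.41) and with limma on the signal (0.95); the adjusted p of IL1A ran from 0.0364 to 0.288 over 19 alternatives, since the filter at a mean of 1 CPM left it and IL1R2 untested. NLRP3 was below 0 with DESeq2 and with its size factors (-0.0021 for each), without a filter (-0.017) and on the signal (-0.0039). With single libraries or batches left out, NLRP3 ran from -0.13 to 0.083, IL1R2 from -0.48 to 0.98 and IL1A from 1.05 to 1.79. The number of sensors called lower was 1 with DESeq2 or its size factors and 0 to 1 with libraries left out. Regulators called lower were 1 with library size only, upper quartile factors or no filter, and 1 to 2 with libraries left out. Signalling genes called higher were 0 without a filter or on the signal, and 0 to 1 with libraries left out. The log2 difference of the IL1R2 to IL1B ratio ran from -2.55 to 0.52, and that of IL1A to IL1B from -0.92 to 0.78, with libraries left out. The cause of these changes was not tested. Over all genes, 3199 to 4446 were called with libraries left out and 4043 to 4994 under the other alternatives, against 4373. Higher genes made up 63.0% of calls with library size only and 60.6% with upper quartile factors, against 51.7%, and the median log2 fold change was 0.12 and 0.10, against 0.02. The alternative of summing several identifiers was not run, because each member has 1. Depth limits IL1A and IL1R2, which had 3 to 41 counts per library.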

Other observations

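CASP1, CASP4, CASP5 and CARD16, neighbours on chromosome 11, were all higher in tri-culture libraries 1 and 2 than in libraries 3 and 4, which was noticed after the values were seen. The order is not particular to these genes: of 16249 tested genes, 5069 (31.2%) had it and 5140 (31.6%) had the opposite one. IL18RAP, the co-receptor of the interleukin-18 receptor, was too low to test, with 3, 16, 10 and 7 counts in tri-culture, against 1, 2, 4 and 1 in mono-culture. IL18R1, its partner chain, had 17.0 ± 2.93 CPM in tri-culture and 14.6 ± 3.06 CPM in mono-culture and was not called (edgeR, adjusted p = 0.436).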
